A study of Mus musculus with 18 samples.

Results

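Genes of the interleukin 1 (IL-1) family were followed in cultured normal fibroblasts (NFs) of the mouse mammary gland. The 8 genes were chosen by symbol from the 55486 genes of the count table. They are the ligands Il1a, Il1b, Il33 and Il18, the receptor antagonist Il1rn, and the receptor genes Il1r1, Il1rl1 and Il1rap. RNA was sequenced from CD26- and CD26+ NFs of FVB/n mice, in 18 libraries that form 4 groups. The comparison asks how each NF population responds to medium conditioned by tumour cells (CM).

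In control medium each population gave 3 libraries, replicates 1 to 3 of CD26- and 10 to 12 of CD26+ NFs. Tumour CM was given to 6 cultures of each, which are replicates 4 to 9 of CD26- and 13 to 18 of CD26+ NFs. The CM came from 6 lines of mouse mammary tumour cells, and each line supplied 1 library of each NF population. In the order of the replicates these lines were 13-MCB-17, 10-SJK-221, 18-MCB-12, 13-MCB-44, 13-MCB-90 and 13-MCB-138. The NFs had been sorted from the pooled glands of young adult females as cells without EpCAM, CD49f, CD45 and CD31, and all groups were harvested after 7 days. The sources do not say whether libraries of a group came from separate animals, so p-values measure the spread between these cultures only.

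Total counts ran from 9725723 to 14585349 per library. The 9 fibroblast markers, none of them at 0 throughout a group, summed to 16525 to 18490 CPM (counts scaled to library size) in CD26- control libraries and 9813 to 21488 in CD26- CM libraries. In CD26+ libraries the sums were 62522 to 79501 CPM in control medium and 29191 to 52131 with CM, and 8 of the 9 were higher in CD26+ NFs in control medium and 7 in tumour CM, beside 25% and 29.3% of all 14273 tested genes. The transcript of Dpp4, which encodes CD26, was at no more than 0.171 CPM in the CD26- control libraries and 0.0809 CPM in the CD26+ control libraries, and at 0.0776 to 0.881 CPM in CD26- CM and 0.715 to 7.80 CPM in CD26+ CM libraries. The 2 names stand for the labelled sort, and this transcript did not separate the control libraries. The 10 epithelial markers summed to between 4337 and 4749 CPM in CD26- control libraries, 2588 and 4247 in CD26- CM libraries, 716 and 1263 in CD26+ control libraries and 632 and 1528 in CD26+ CM libraries, with none of the 10 at 0 throughout a group. Epcam, whose protein the sort selected against, was at 224 to 243 CPM in CD26- control, 134 to 208 in CD26- CM, 39.9 to 78.8 in CD26+ control and 33.4 to 84.5 in CD26+ CM libraries. Of 10 leukocyte markers, 7 stayed under 1 CPM in every library of each group, Ptprc (CD45) at no more than 0.256 CPM, and the mast cell marker Cpa3 had no counts. The lowest and highest sums of the 10 leukocyte markers over all libraries were 14.7 and 29.7 CPM.

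As background, IL-1 alpha and IL-1 beta signal through the receptor IL1R1, which needs the accessory chain IL1RAP. The antagonist encoded by Il1rn occupies IL1R1 without recruiting IL1RAP, and the receptor encoded by Il1r2 is a decoy. IL-33, a nuclear cytokine released by damaged cells, uses the receptor encoded by Il1rl1 (ST2) with the same accessory chain. IL-1 alpha is active as it is made, whereas IL-1 beta and IL-18 need cleavage by caspases such as caspase 1. Fibroblasts answer IL-1 with chemokines, proteases and adhesion molecules through NF-kB.

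The ligand Il1a and the antagonist Il1rn showed opposite shifts with CM, and Il33 passed the test with CM in CD26+ but not in CD26- NFs, so the 250 bases before a start of each gene are shown (RefSeq, GRCm38.p6, 5′ to 3′ on the gene's strand). Capitals mark the letters TGANTCA, the core that AP-1 factors recognise. Of the Il1rn starts, the one shown was picked because its window held these letters. The windows before its later starts did not hold them.

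Il1a, chr2:129309973-129310222, minus strand: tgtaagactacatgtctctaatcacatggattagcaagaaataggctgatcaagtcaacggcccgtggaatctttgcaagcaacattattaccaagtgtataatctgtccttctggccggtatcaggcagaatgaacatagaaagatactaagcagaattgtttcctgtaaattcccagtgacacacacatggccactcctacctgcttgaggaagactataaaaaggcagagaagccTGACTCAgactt
Il1rn, the first of its starts, chr2:24336610-24336859, plus strand: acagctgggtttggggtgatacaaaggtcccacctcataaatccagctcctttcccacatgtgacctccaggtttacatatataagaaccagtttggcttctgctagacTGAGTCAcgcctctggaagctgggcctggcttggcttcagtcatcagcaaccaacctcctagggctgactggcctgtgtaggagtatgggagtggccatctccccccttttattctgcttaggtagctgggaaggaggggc
Il33, the first of its starts, chr19:29924863-29925112, plus strand: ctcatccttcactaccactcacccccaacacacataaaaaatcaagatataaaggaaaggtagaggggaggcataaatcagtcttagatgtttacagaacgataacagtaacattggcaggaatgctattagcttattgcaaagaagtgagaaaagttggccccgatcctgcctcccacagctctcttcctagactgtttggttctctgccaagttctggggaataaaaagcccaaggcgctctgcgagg

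RefSeq listed 13 starts for the 8 genes, all of which matched by symbol, and both strands were searched. The AP-1 letters stood in 2 of the 13 windows, at bases -12 to -6 before the Il1a start and at -141 to -135 before this Il1rn start, against 6.75% of 32851 windows of all genes. The NF-kB motif, searched by name with its usual degenerate letters, stood in 1 of the 13, at -232 to -223 before the second start of Il1r1, and in 7.25% of all windows. The Il33 window held neither set of letters, and no match says only that these letters are not in this window.

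**Figure D1:**
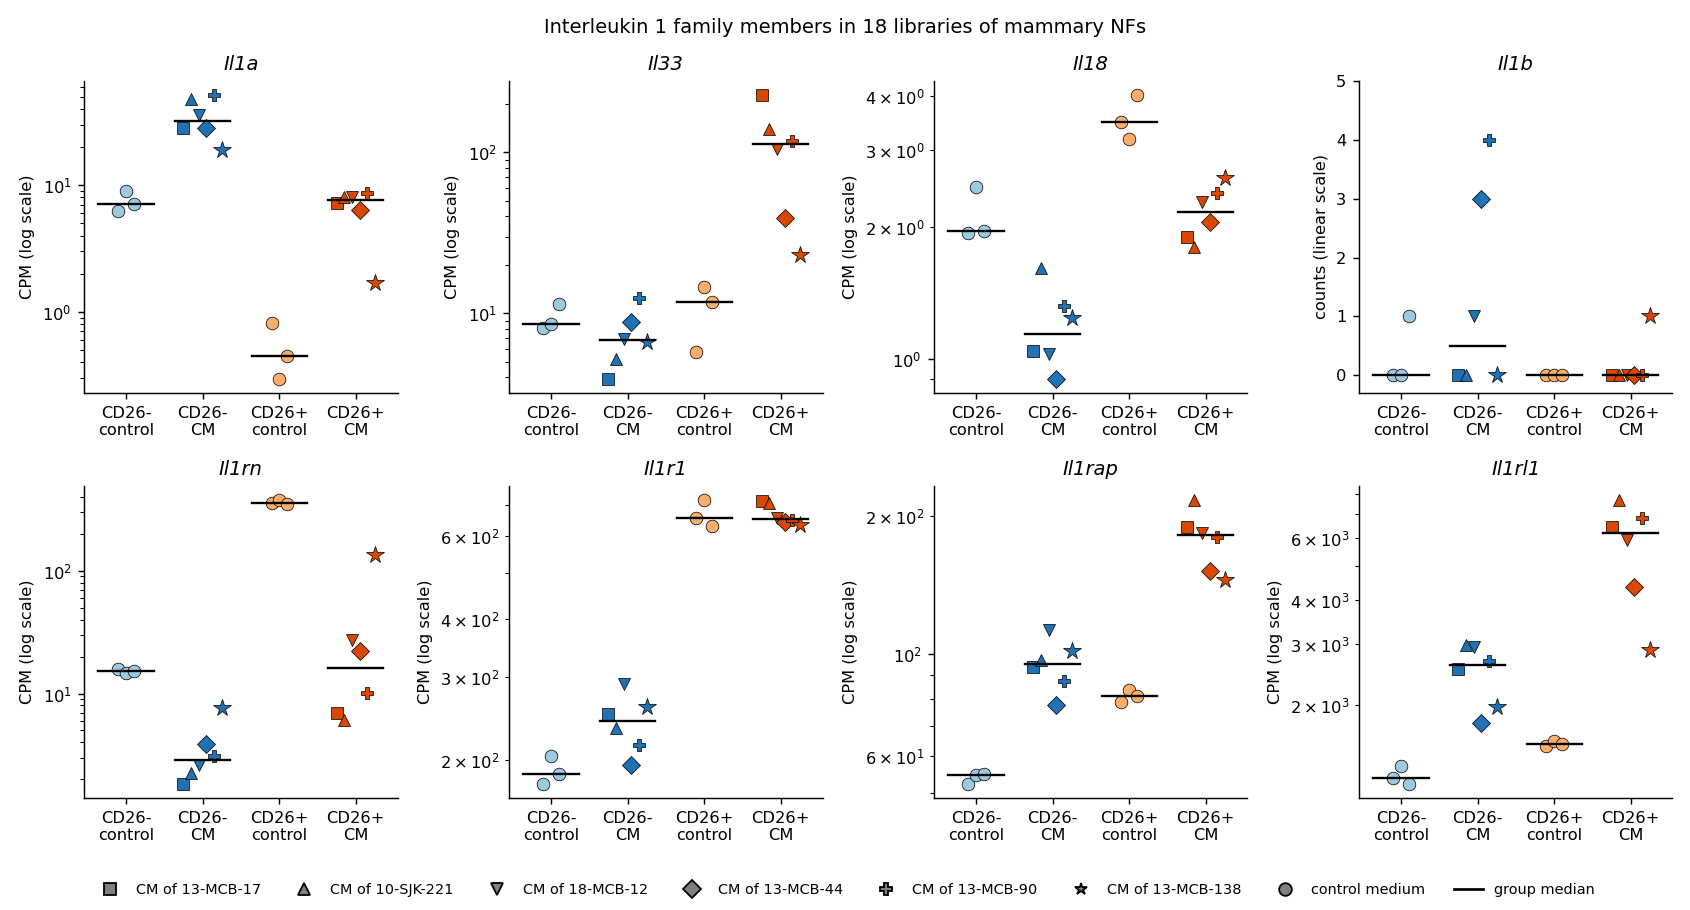
CPM of 7 genes (log axis) and counts of Il1b (linear axis) in each of the 18 libraries, by group; symbols mark the tumour line that gave the CM and black bars the group medians. Il1a is higher and Il1rn lower in every CM library than in the controls of its NF population, Il33 is high in CD26+ CM libraries, and the stars (13-MCB-138) sit nearest to the controls for Il1a and Il1rn.

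Il1a, on chromosome 2 (129299610 to 129309972, GRCm38), was at 6.29, 9.05 and 7.11 CPM in CD26- control libraries and at 18.9 (lowest), 32.2 (median) and 51.3 CPM (highest) in CD26- CM libraries. In CD26+ NFs it was at 0.809, 0.296 and 0.445 CPM in control medium, from 20 counts in all, and at 1.70, 7.69 and 8.69 CPM (lowest, median, highest) in tumour CM. The control and CM ranges did not overlap in either population, and 5 of the 6 CD26+ CM libraries lay within the range of the CD26- control libraries, the other one (replicate 18) below it. Il1a rose with tumour CM in CD26- NFs (log2 fold change 2.23 ± 0.36 SE, FDR = 0.000722 by edgeR's quasi-likelihood test) and in CD26+ NFs (3.70 ± 0.60, FDR = 0.00021). CD26+ NFs had less Il1a than CD26- NFs in control medium (-3.85 ± 0.64, FDR = 7.22e-05) and in tumour CM (-2.38 ± 0.28, FDR = 9.83e-07). The epithelial markers were also lower in CD26+ NFs, and within CD26- NFs every CM library had a lower epithelial sum than every control while Il1a was higher; the part of epithelial cells in these levels was not tested. In bulk RNA, fewer cells of a type and less RNA per cell cannot be told apart.

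Il1b (chromosome 2, 129364570 to 129371139) was all but absent from the libraries. It had 1 count in CD26- control libraries together, 8 counts in CD26- CM libraries, 0 in CD26+ control libraries and 1 in CD26+ CM libraries. The 0 of 41533033 counts in the CD26+ control libraries allows a level of up to 0.0722 CPM, by counting error only. No library held more than 4 counts, so Il1b was too low to be tested.

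Il33, on chromosome 19 (29925114 to 29960718), was at 8.13, 8.63 and 11.5 CPM in CD26- control libraries and at 3.92, 6.79 and 12.4 CPM (lowest, median, highest) in CD26- CM libraries. In CD26+ NFs it was at 5.75, 14.7 and 11.7 CPM in control medium and at 23.0, 112 and 226 CPM in tumour CM. The CD26- ranges overlapped, whereas every CD26+ CM library lay above every other library of the study. Il33 rose with CM in CD26+ NFs (log2 fold change 3.34 ± 0.59, FDR = 0.000494), while the value in CD26- NFs was -0.38 ± 0.61 (FDR = 0.724). In tumour CM, Il33 was higher in CD26+ than in CD26- NFs (3.89 ± 0.46, FDR = 1.44e-06), and in control medium the difference was 0.18 ± 0.68 (FDR = 0.848).

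Il18, on chromosome 9 (50554827 to 50581840), had only 12 to 54 counts per library. It lay at 1.94, 2.48 and 1.96 CPM in CD26- control libraries and at 0.901, 1.14 and 1.61 CPM (lowest, median, highest) with CM. The CD26+ control libraries had 3.48, 3.19 and 4.01 CPM, and the CD26+ CM libraries 1.80, 2.17 and 2.59 CPM. Il18 fell with tumour CM in CD26- NFs (-0.83 ± 0.19, FDR = 0.00746) and in CD26+ NFs (-0.72 ± 0.16, FDR = 0.00345), the ranges not overlapping in either. It was higher in CD26+ NFs in control medium (0.74 ± 0.19, FDR = 0.00394) and in tumour CM (0.85 ± 0.16, FDR = 0.000151). Without replicate 2, a CD26- control, the fall in CD26- NFs had an FDR of 0.0612.

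Il1rn, the receptor antagonist on chromosome 2 (24336853 to 24351494), separated the populations in control medium more widely than any of the other 6 genes tested. It lay at 16.0, 14.6 and 15.2 CPM in CD26- control libraries and at 355, 376 and 351 CPM in CD26+ control libraries. In control medium 8 of 9 fibroblast markers were also higher and 8 of 10 epithelial markers lower in CD26+ NFs, beside 25% and 25.4% of all tested genes. Their part in the difference of Il1rn was not tested. With tumour CM it was at 1.84, 2.87 and 7.69 CPM (lowest, median, highest) in CD26- NFs and at 6.08, 16.2 and 133 CPM in CD26+ NFs. Every CM library lay below every control of its own population, and 3 CD26+ CM libraries lay below the CD26- controls. The level in CD26+ NFs was higher in control medium (4.56 ± 0.87, FDR = 0.000287) and in tumour CM (3.28 ± 0.71, FDR = 0.000665), where the ranges overlapped. CM lowered it in CD26+ NFs (-3.41 ± 0.62, FDR = 0.000649), and by more without replicate 18, the CD26+ library given 13-MCB-138 CM (-4.64), without which the difference in tumour CM was 2.05. In CD26- NFs the change was -2.12 ± 0.85 and did not pass the test (FDR = 0.101), although the ranges did not overlap. With the spread taken from these 2 groups alone the FDR was 0.00198, and without replicate 18 it was 0.00395. DESeq2 gave neither a p nor an adjusted p for Il1rn in the group comparisons, so it is no check on these calls.

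Levels of the ligand and its antagonist can be set side by side only per length, as CPM per kb of annotated exon. On that scale the ratio of Il1rn to Il1a was 0.905, 0.575 and 0.761 in CD26- control libraries and 157, 453 and 281 in CD26+ control libraries. With tumour CM the ratio was 0.0167, 0.0246 and 0.145 (lowest, median, highest) in CD26- NFs and 0.267, 0.809 and 28.0 in CD26+ NFs. On this scale the antagonist transcript was above the ligand in all CD26+ controls and below it in all CD26- libraries. With CM, 3 CD26+ libraries stood on each side of an equal level. Sides near an equal level depend on the lengths used, 5.535 kb for Il1rn and 1.974 kb for Il1a. The Il1rn length joins 6 transcripts, which counts per gene do not separate. In CPM, Il1rn was above Il1a in CD26- controls (14.6 to 16.0 against 6.29 to 9.05). It was below Il1a in CD26- CM libraries (1.84 to 7.69 against 18.9 to 51.3). The highest ratio in each CM group belonged to 13-MCB-138. The ratio is built from values already tested and is given without a test of its own.

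**Figure D2:**
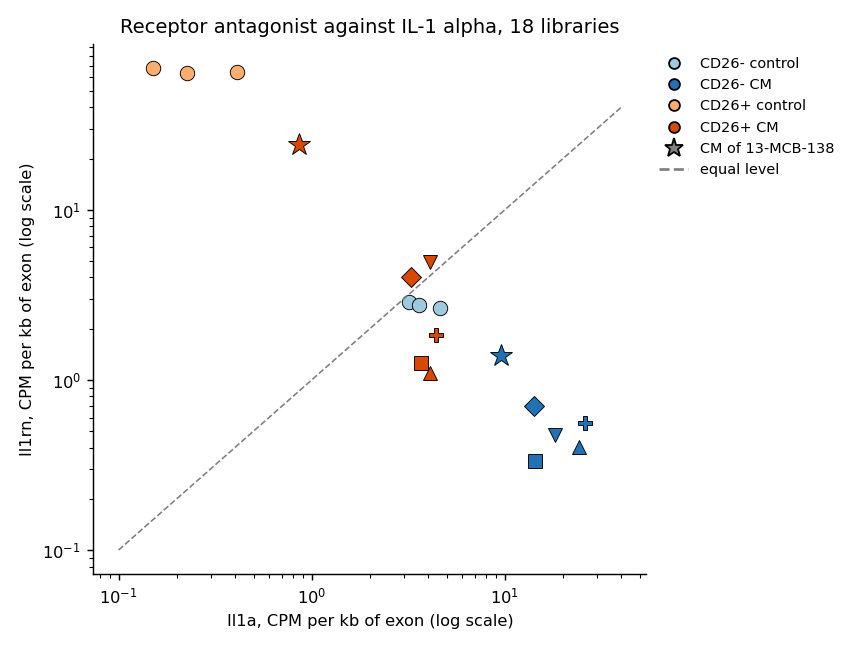
Il1rn against Il1a in the 18 libraries, both in CPM per kb of exon on log axes; colour gives the group, symbols the tumour line as in the plot of levels, and the dashed line an equal level. CD26+ controls sit at the top left with ratios of 157 to 453, CD26- CM libraries at the bottom right with ratios of 0.0167 to 0.145, and the star of the CD26+ CM group (ratio 28.0) lies nearest to the CD26+ controls.

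Il1r1, the signalling receptor for both IL-1 ligands, lies on chromosome 1 (40225080 to 40317257). It was at 178, 204 and 186 CPM in CD26- control libraries and at 195, 242 and 290 CPM (lowest, median, highest) in CD26- CM libraries, ranges that overlapped. CD26+ control libraries had 655, 716 and 630 CPM, and CD26+ CM libraries 634, 653 and 713 CPM. The receptor was thus higher in CD26+ NFs in control medium (log2 fold change 1.82 ± 0.11, FDR = 3.14e-09) and in tumour CM (1.47 ± 0.08, FDR = 2e-10), and no CD26- library reached a CD26+ one. The fibroblast markers were also higher in CD26+ NFs, and their part in this difference, and in that of Il1rap given below, was not tested. Tumour CM changed it by 0.35 ± 0.09 in CD26- NFs (FDR = 0.0209), a call that was lost without replicate 1 (FDR = 0.0969), without replicate 3 (FDR = 0.0893) and in a fit of the 2 groups alone (FDR = 0.0527). In CD26+ NFs the value was 0.00 ± 0.09 (FDR = 0.995), and its sign turned under several alternatives.

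Il1rl1, which encodes the IL-33 receptor ST2 (chromosome 1, 40429570 to 40465415), had the highest level per length of the 8 genes in every group. On the CPM per kb scale its group means were 183 ± 10.7 (SD, n = 3) in CD26- control, 360 ± 71.5 (n = 6) in CD26- CM, 226 ± 3.97 (n = 3) in CD26+ control and 825 ± 256 (n = 6) in CD26+ CM libraries. In CPM, CD26- control libraries had 1243, 1341 and 1195, and CD26- CM libraries 1786, 2606 and 2971 (lowest, median, highest). CD26+ control libraries had 1531, 1585 and 1552 CPM, and CD26+ CM libraries 2884, 6180 and 7687 CPM. It rose with CM in CD26- NFs (0.98 ± 0.23, FDR = 0.01) and in CD26+ NFs (1.87 ± 0.25, FDR = 2.94e-05), with no overlap of the ranges in either. Without replicate 3 the rise in CD26- NFs had an FDR of 0.0602. The populations differed in tumour CM (1.20 ± 0.18, FDR = 2.55e-05), where only the lowest CD26+ library, given 13-MCB-138 CM, fell within the CD26- range. In control medium the difference was 0.30 ± 0.26 (FDR = 0.346) although the ranges did not overlap, and in a fit of those 2 groups alone the FDR was 0.000378. Counts per gene do not separate the membrane-bound and the soluble form of ST2.

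Il1rap, the shared accessory chain (chromosome 16, 26581704 to 26730117), was at 52.3, 54.7 and 54.9 CPM (lowest, median, highest) in CD26- control libraries and at 77.5, 95.5 and 113 CPM in CD26- CM libraries. CD26+ control libraries ran from 78.8 to 83.6 CPM and CD26+ CM libraries from 145 to 217 CPM, with a median of 182. CM raised it in CD26- NFs (0.82 ± 0.12, FDR = 0.000362) and in CD26+ NFs (1.13 ± 0.12, FDR = 3.31e-06). It was higher in CD26+ NFs in control medium (0.59 ± 0.13, FDR = 0.00115) and in tumour CM (0.90 ± 0.09, FDR = 2.07e-07). None of the 4 pairs of groups compared overlapped, and the level in CD26- NFs with CM met that of CD26+ NFs without it. Per length, this accessory chain had lower means than Il1r1 and Il1rl1 in every group, with 4.75, 8.38, 7.15 and 15.6 CPM per kb in the order CD26- control, CD26- CM, CD26+ control and CD26+ CM.

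Counted over the family, tumour CM raised 4 and lowered 1 of the 7 tested genes in CD26- NFs, where 7.88% of all 14273 tested genes were higher and 7.28% lower. In CD26+ NFs it raised 4 and lowered 2, against 15.2% and 13.4% of all tested genes. The median log2 change of the 7 was 0.35 in CD26- and 1.13 in CD26+ NFs, beside medians of 0.0052 and -0.0040 over all tested genes. Between the populations in control medium CD26+ NFs had more of 4 and less of 1 (25% and 25.4% of all tested genes in those directions), and the median was 0.59 beside 0.0064. In tumour CM 6 were higher and 1 lower (29.3% in each direction of all genes), with a median of 1.20 beside -0.00011. Ranges did not overlap for 5, 6, 6 and 5 of the 7 in these 4 comparisons, which reuse the same libraries, as was so for 20.3%, 25.3%, 64.7% and 31.7% of all tested genes.

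**Figure D3:**
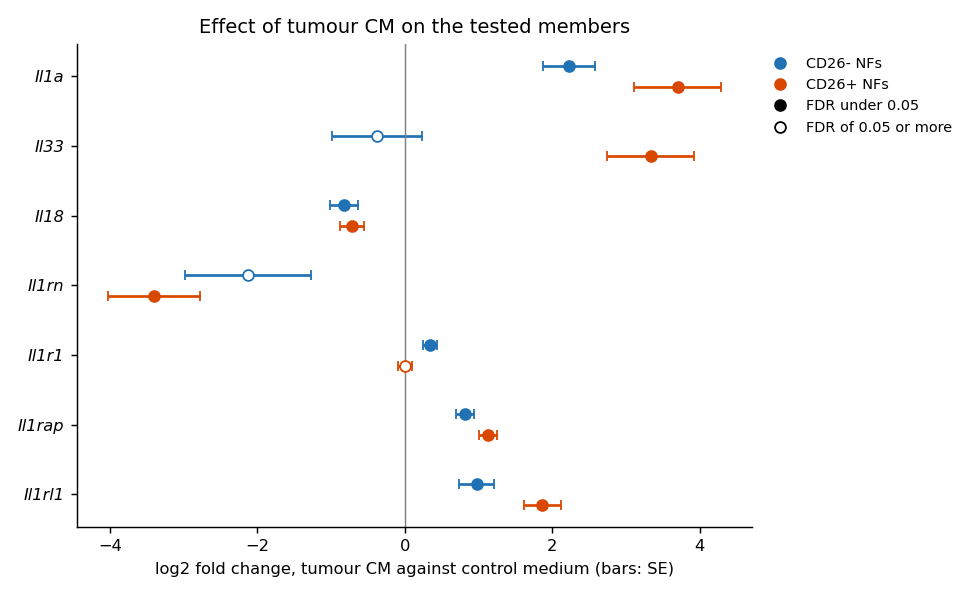
Log2 fold change of tumour CM against control medium for the 7 tested genes in CD26- and CD26+ NFs; bars are SE and filled points have an FDR under 0.05. Il33 stands at 3.34 in CD26+ and -0.38 in CD26- NFs, Il1r1 near 0 in CD26+ NFs, and Il1a, Il18, Il1rn, Il1rap and Il1rl1 point the same way in both.

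Whether the response to CM differed between the populations was tested as the difference of the 2 CM effects. Il33 alone passed, with a response that was 3.71 ± 0.83 higher on the log2 scale in CD26+ NFs (FDR = 0.0137), where 4.53% of all tested genes were higher and 3.01% lower. Without replicate 3, a CD26- control, its FDR was 0.0538. Il1rl1 (0.89 ± 0.32, FDR = 0.0874), Il1r1 (-0.35 ± 0.13, FDR = 0.109) and Il1rap (0.31 ± 0.16, FDR = 0.235) did not pass. Nor did Il1a (1.47 ± 0.77, FDR = 0.244), Il1rn (-1.29 ± 1.10, FDR = 0.51) or Il18 (0.11 ± 0.25, FDR = 0.859). Without replicate 18 alone, Il1rn (-2.52 ± 0.59, FDR = 0.00742) and Il1rl1 (1.02 ± 0.23, FDR = 0.00623) passed, and without replicate 7 Il1r1 did (FDR = 0.0358). With the tumour line as a block, which pairs the CD26- and CD26+ libraries given the same CM, 5 genes passed, namely Il33 (FDR = 0.005), Il1rl1 (0.00259), Il1rn (0.0108), Il1a (0.0318) and Il1r1 (0.0497), where 9.42% of all tested genes were higher and 8.21% lower. In that fit Il1rl1 and Il1a gained more in CD26+ NFs (0.85 ± 0.15 and 1.47 ± 0.43), and Il1rn was lowered more (-1.65 ± 0.38).

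Differences among the 6 tumour lines passed the test for 2 of the 7 genes. Over the 12 CM libraries, with NF population as a term, Il1rn (FDR = 0.0123) and Il1a (FDR = 0.0347) differed among lines, which 6.56% of 13344 genes did. Il1rl1 had an FDR of 0.054, and Il1rap, Il33, Il1r1 and Il18 had values of 0.321, 0.391, 0.518 and 0.884. The call for Il1a was lost when any of 8 single libraries was left out (FDR up to 0.116), whereas that for Il1rn held in each of the 12 cases (FDR up to 0.0396). Each of these fits still held a library of every line. They cannot show whether lines other than 13-MCB-138 differed, and the line test was not run without it.

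The line 13-MCB-138 gave the lowest Il1a and the highest Il1rn in both populations. Relative to the mean of the 3 controls, Il1a in its CM libraries was higher by 1.34 on the log2 scale in CD26- NFs and by 1.72 in CD26+ NFs, and over the other 5 lines by 1.91 to 2.78 and by 3.63 to 4.07. Il1rn stood at -0.99 in CD26- and -1.44 in CD26+ NFs with 13-MCB-138 CM, and between -3.05 and -1.97 and between -5.89 and -3.72 with the other lines. The same CM gave CD26+ NFs their smallest gains in Il33 (1.10, against 1.87 to 4.40), Il1rl1 (0.89, against 1.48 to 2.30) and Il1rap (0.84, against 0.90 to 1.42). In CD26- NFs the smallest gains in Il1rl1 (0.50) and Il1rap (0.52) came instead with 13-MCB-44. The line 13-MCB-17 gave the highest Il33 in CD26+ NFs and the lowest in CD26- NFs, at 226 and 3.92 CPM. The epithelial sum of the 13-MCB-138 libraries, 3525 and 782 CPM, lay within the range of the other lines in each population.

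**Figure D4:**
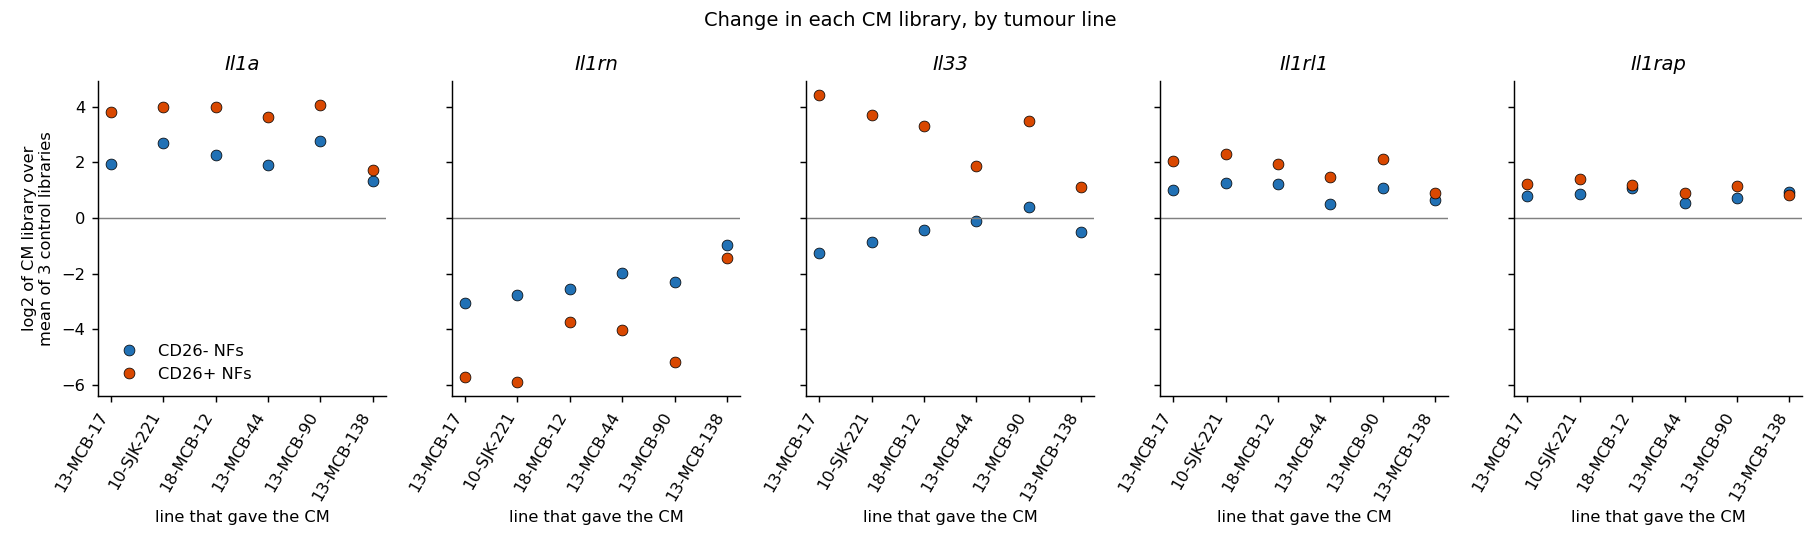
Log2 of the CPM in each CM library over the mean of the 3 control libraries of its NF population, by tumour line, for 5 genes; each point is 1 library. With 13-MCB-138 CM the CD26+ points lie closest to 0 in all 5 panels, for example at 1.10 for Il33 and -1.44 for Il1rn, and in the Il33 panel all CD26+ points lie above the CD26- points.

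Leaving out both 13-MCB-138 libraries kept all 5 calls in CD26- NFs and added Il1rn (-2.47 ± 0.44, FDR = 0.0013), beside 10.3% of all tested genes higher and 9.99% lower. It kept the 6 calls in CD26+ NFs, with Il1rn at -4.64 ± 0.32 (FDR = 2.81e-08), Il33 at 3.54 ± 0.48 (FDR = 2.64e-05) and Il1a at 3.89 ± 0.38 (FDR = 9.67e-07), beside 18% and 17.2%. The difference in CM effect then passed for 4 genes, Il33 (FDR = 0.00147), Il1rl1 (0.00783), Il1rn (0.017) and Il1a (0.0432), beside 8.77% and 8.13%. This alternative was chosen after the values had been seen.

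Of the rest of the family, 5 of 7 other receptor genes and 2 of 6 other ligand or inhibitor genes were high enough to be tested. Il1r2, the decoy receptor, rose with CM in CD26- NFs (1.62 ± 0.21, FDR = 0.000194) and in CD26+ NFs (0.46 ± 0.15, FDR = 0.0243), the response being smaller in CD26+ NFs (-1.16 ± 0.25, FDR = 0.0127). Its group means were 0.803, 2.45, 3.93 and 5.42 CPM in the order CD26- control, CD26- CM, CD26+ control and CD26+ CM. Il1rl2, the receptor for the IL-36 ligands, rose in CD26- NFs (0.33 ± 0.08, FDR = 0.0125) and had a value of -0.05 ± 0.08 in CD26+ NFs (FDR = 0.711); the difference of the responses (-0.38 ± 0.11) had an FDR of 0.0509, and of 0.0145 with the line as a block. Il18rap, the accessory chain of the IL-18 receptor, fell in CD26- (-0.49 ± 0.16, FDR = 0.0401) and CD26+ NFs (-0.53 ± 0.19, FDR = 0.0394), while its partner Il18r1 (-0.35 ± 0.27 and -0.35 ± 0.31) and the inhibitory receptor Sigirr (-0.14 ± 0.24 and 0.18 ± 0.36) did not pass. The Il18rap call was lost in CD26- NFs without any one of replicates 1, 2, 3, 5, 6, 8, 9, 11, 12 and 17 (FDR up to 0.152), and in CD26+ NFs without any one of replicates 10 to 15 and 17 or in a fit of the 2 groups alone (up to 0.213). The Il1r2 call in CD26+ NFs was lost without replicate 10, 11 or 12, without the filter on low counts and in the 2 groups alone (up to 0.0955). Its difference was lost without replicate 3 (0.0786), and the Il1rl2 call in CD26- NFs without replicate 1 (0.0704). The median of the 5 was -0.14 and -0.05.

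A row of 6 receptor genes stands on chromosome 1, in the order Il1r2, Il1r1, Il1rl2, Il1rl1, Il18r1 and Il18rap, from 40074079 to 40551705. In control medium the 3 at one end were higher in CD26+ NFs, with log2 differences of 2.30 for Il1r2, 1.82 for Il1r1 and 1.48 for Il1rl2. The next, Il1rl1, did not pass (0.30), and the 2 at the other end were lower, Il18r1 by -1.91 ± 0.34 (FDR = 0.000159) and Il18rap by -1.84 ± 0.20 (FDR = 7.8e-07). Of all tested genes 25% were higher and 25.4% lower in this comparison, and the order along the row was not tested. Il18r1 and Il18rap had group means of 47.2 and 33.1 CPM in CD26- control and 12.7 and 9.26 CPM in CD26+ control libraries, as the epithelial sum was also lower there; its part was not tested. In tumour CM the signs were the same, and Il1rl1 passed as higher, beside 29.3% of all tested genes higher and 29.3% lower. Sigirr, on chromosome 7, was lower in CD26+ NFs in both media (-2.15 ± 0.34 and -1.83 ± 0.24). The 10 epithelial markers had medians of -2.10 and -1.76 in these comparisons, and their part was not tested.

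Among the other ligands, Il1f10 lies near the antagonist on chromosome 2 (24291196 to 24293820). It had 3 counts in CD26- control libraries, 0 in CD26- CM libraries, 63 in CD26+ control libraries and 25 in CD26+ CM libraries. These counts are given without a test, since the gene passed the filter on low counts only through the CD26+ controls. Il18bp, the soluble inhibitor of IL-18, did not pass with CM (0.02 ± 0.23 and 0.00 ± 0.20) and was higher in CD26+ NFs in control medium (0.64 ± 0.25, FDR = 0.0384) and in tumour CM (0.63 ± 0.17, FDR = 0.00485). The call in control medium was lost with DESeq2 (FDR = 0.0641), without the filter on low counts, in the 2 groups alone and without replicate 2, 3, 10, 11 or 12 (up to 0.192). The IL-36 ligand gene Il1f6 had 1 and 0 counts over the CD26- and CD26+ control libraries and 27 and 37 over the CM libraries, too few to be tested.

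In the inflammasome and ligand processing list, 9 of 14 genes were tested. In CD26- NFs 1 rose and 2 fell, beside 7.88% and 7.28% of all tested genes, and in CD26+ NFs 4 rose and 2 fell, beside 15.2% and 13.4%, with medians of 0.24 in both. Of the 3 calls in CD26- NFs 0 were left without replicate 3, and there were 5 without replicate 9; Casp1 was lost without replicate 1 as well. Gsdmd, the pore through which cytokines leave the cell, rose in CD26- (0.41 ± 0.10, FDR = 0.0106) and CD26+ NFs (0.68 ± 0.10, FDR = 7.42e-05). Casp1, the protease that cleaves IL-1 beta and IL-18, fell in both (-0.44 ± 0.11, FDR = 0.0157, and -0.70 ± 0.11, FDR = 0.000222). The sensor Nlrp3 rose in CD26+ NFs (2.61 ± 0.44, FDR = 0.000304) and had 1.53 ± 0.60 in CD26- NFs (FDR = 0.0905). In CD26- NFs Casp8, an apoptotic protease, fell (-0.27 ± 0.06, FDR = 0.00615), and Casp4 (0.42 ± 0.14) and Tmed10 (-0.05 ± 0.05) did not pass. In CD26+ NFs Capn2, a calpain, rose (0.24 ± 0.05, FDR = 0.00285) and Tmed10, a cargo receptor for leaderless cytokines, fell (-0.18 ± 0.05, FDR = 0.0132, or 0.0534 in the 2 groups alone).

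Of 21 receptor signalling genes 20 were tested. In CD26- NFs 3 rose and 2 fell (median -0.03; 3 calls in all without replicate 3, which lost Peli1 and Peli2), beside 7.88% and 7.28% of all tested genes, and in CD26+ NFs 8 rose (median 0.14), beside 15.2%. Irak3, which restrains the kinases below the receptor, had the smallest p of the risers in both (1.49 ± 0.19, FDR = 0.000194, and 2.22 ± 0.17, FDR = 1.48e-07), followed by the kinase Map3k8 (1.32 ± 0.19 and 1.50 ± 0.18, FDR = 0.000353 and 1.25e-05) and the ubiquitin ligase Peli2 (0.53 ± 0.12 and 0.47 ± 0.11, FDR = 0.00604 and 0.00443). Its relative Peli1 (-0.42 ± 0.09, FDR = 0.00538) and the adaptor Traf6 (-0.27 ± 0.06, FDR = 0.00676) fell in CD26- NFs, where Irak2 did not pass (-0.24 ± 0.09). In CD26+ NFs the lower values of Peli1 (-0.19 ± 0.09), Irak4 (-0.11 ± 0.09) and Tab1 (-0.07 ± 0.07) did not pass either. The responses differed between populations for 4 of the 20, all higher in CD26+ NFs, beside 4.53% of all tested genes, and for 7 when lines were blocked, beside 9.42%. The number ran from 0, without replicate 3 or replicate 12, to 8, without replicate 18, and was 1 or 2 without any one of replicates 1, 2, 4, 5, 8, 10, 11, 13, 15, 16 and 17.

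Genes known to respond to IL-1 formed the last list, which like the others was drawn up with earlier results of these data known. Of 35 tested of 36, tumour CM raised 21 and lowered 3 in CD26- NFs (median 1.11), where 7.88% and 7.28% of all tested genes rose and fell with a median of 0.0052. In CD26+ NFs it raised 26 and lowered 3 (median 1.62), beside 15.2% and 13.4% of all genes and a median of -0.0040. Many of these genes also respond to other stimuli of NF-kB, and which factors the CM held was not measured here. In CD26- NFs the risers with the smallest p were Zc3h12a, an mRNA-degrading regulator (1.31 ± 0.13, FDR = 3.16e-05), the adhesion molecule Vcam1 (1.58 ± 0.18, FDR = 8.75e-05) and the neutrophil chemokine Cxcl5 (2.83 ± 0.32, FDR = 9.33e-05). In CD26+ NFs they were the NF-kB subunit Nfkb1 (1.05 ± 0.07, FDR = 3.44e-08), the monocyte chemokine Ccl2 (3.26 ± 0.23, FDR = 8.7e-08) and the mitochondrial enzyme Sod2 (2.40 ± 0.17, FDR = 8.7e-08).

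The genes of this list that fell were the cytokine Il11 in CD26- (-1.19 ± 0.37, FDR = 0.0369) and CD26+ NFs (-1.29 ± 0.37, FDR = 0.0144), and Tnfaip6, a hyaluronan-binding protein, in both (-0.51 ± 0.17, FDR = 0.0483, and -0.86 ± 0.15, FDR = 0.000409). The transcription factor Irf1 fell in CD26- NFs (-0.54 ± 0.14, FDR = 0.0133) and the hyaluronan synthase Has1 in CD26+ NFs (-1.39 ± 0.22, FDR = 0.000175). In CD26- NFs the call of Il11 was lost without any one of replicates 1 to 6 and 8 (FDR up to 0.102), that of Tnfaip6 without any one of replicates 1 to 5, 8, 10 to 12, 15 and 17 (up to 0.132) and that of Irf1 without replicate 1 or 3 (up to 0.0897). The responses differed for 15 of the 35, 12 of them higher in CD26+ NFs, beside 4.53% of all genes higher and 3.01% lower. With the tumour lines as blocks it was 22, 19 of them higher, beside 9.42% and 8.21%, and without replicate 1, 2, 3 or 11 it was 9. Among the 12 were Ccl2 (1.83 ± 0.28, FDR = 0.00267), Sod2 (1.29 ± 0.22, FDR = 0.00402) and Nfkb1 (0.85 ± 0.09, FDR = 0.000459). Vcam1 responded less in CD26+ NFs (-0.83 ± 0.23, FDR = 0.0376), a call lost without any one of replicates 1, 2, 3, 5, 6, 8, 10, 11, 13 and 17 (up to 0.112). Without both 13-MCB-138 libraries 26 of the 35 passed in CD26- NFs, beside 10.3% of all genes higher and 9.99% lower, and 30 in CD26+ NFs, beside 18% and 17.2%. Over all alternatives the numbers ran from 14 to 27 and from 27 to 30, with 14 in CD26- NFs without replicate 3 and 15 without replicate 2.

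**Figure D5:**
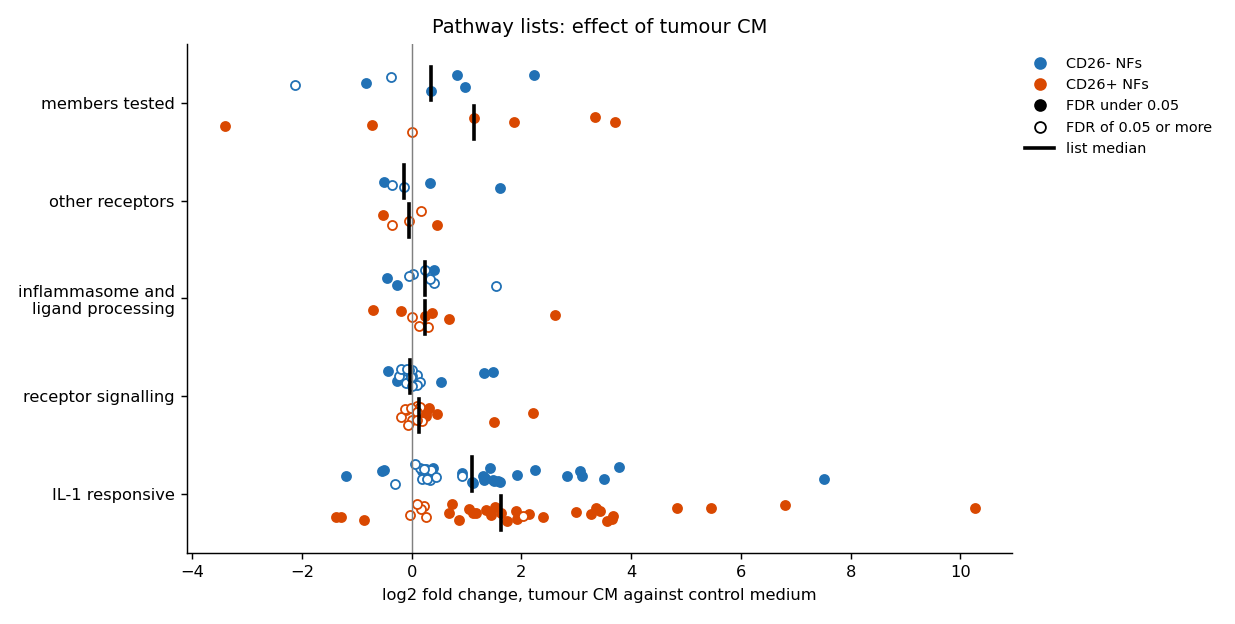
Log2 fold change of tumour CM against control medium for the tested genes of 5 lists in CD26- and CD26+ NFs; each point is 1 gene, filled where the FDR is under 0.05, and black bars are list medians. The IL-1 responsive genes have medians of 1.11 and 1.62, and the receptor signalling genes -0.03 and 0.14.

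The patterns over the 18 libraries were also compared with those of the 10612 genes whose mean reached 5 CPM, as Pearson's r of log2 CPM. The points share library and group, so r describes these 4 groups and carries no p. Most like Il1r1 was another receptor of its row, Il1rl2 (r = 0.995), followed by Pros1 (0.993) and Prickle2 (0.992). Il1rap was nearest to Adamts9 (0.993), Prrx1 (0.987) and Fgf7 (0.987), and Il1rl1 to Dpy19l1 (0.98), Tnc (0.978) and Adamts7 (0.977). Il1rn was nearest to Slc1a3 (0.99), Igfbp4 (0.983) and Csrp2 (0.978), and Il1a to Agps (0.978), Swap70 (0.976) and Grb14 (0.97). The 2 with the lowest best values were Il33, nearest to Kdm5b (0.94), Tbcel (0.937) and Azin1 (0.933), and Il18, nearest to Chst1 (0.952), Cped1 (0.931) and Pde8a (0.918).

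Several of the 8 genes overlap others in the annotation, and the sources used here do not say whether counting used the strand of the stranded libraries. The overlapping genes on the other strand had at most 1 count in any library for Il1rap and Il1b and at most 5 for Il1a and Il18. Gm38070, on the same strand as Il1r1, had at most 30.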

How the data were processed

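Poly(A) RNA of 18 cultures was sequenced from stranded libraries. The authors deposited raw counts per gene, which per the labels were made with HISAT2 2.1.0 and HTSeq on GRCm38; the HTSeq version and strand setting are not given in the sources used here. From these counts, edgeR 4.0.16 (R 4.3.3) was run with TMM scaling, filterByExpr by group (14273 of 55486 genes kept; 1 row without a gene held 0 counts), 1 term for each of the 4 groups and quasi-likelihood tests; the FDR is the Benjamini-Hochberg value over all tested genes and a call needs an FDR under 0.05. The SE is the log2 fold change over the square root of F. CPM use TMM library sizes, log2 CPM a prior count of 2, and exon lengths the union of GENCODE exons. Lines were tested over 12 libraries with population as a term (13344 genes). Scripts were tested on simulated data. Coordinates are those of the count table and equal GENCODE's for GRCm38.

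Deviations of same-line CD26- and CD26+ libraries from their group means had r of 0.247 to 0.406 in the 6 pairs. Pairs of different lines were not computed, so these values have no baseline. The labels name the shared CM, so the line was used as a block in an alternative. Its values are given where it changed a call of the 8 genes or, for the difference in CM effect, the number of calls in a list. No 2 libraries of a group agreed within sampling noise. The other alternatives dropped the filter or required a mean of 5 CPM, scaled by RLE or the upper quartile, added a log2 limit of 2, used DESeq2 1.42.0, fitted each pair of groups alone or left out 1 library. Depth was 9725723 to 14585349 counts per library, and limits for 0 use 3 counts.

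The 8 genes and the lists were chosen with earlier results of these data known. Besides the 8, all tested family ligands, inhibitors and receptors were named, in each other list the 3 genes with the smallest p per direction and CM effect, and the 3 genes most like each of the 7 tested. Marker lists served to check the sort.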

Additional observations from a re-analysis of the deposited data

Results flagged for a closer look

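In the CM groups of 6 libraries, Dixon's gap test was applied to the 7 tested genes, 14 cases in all, and marked 3; chance marks about 1 in 20. All 3 were libraries given CM of 13-MCB-138. Il1rn stood apart as the highest at 7.69 CPM in CD26- NFs and at 133 CPM in CD26+ NFs, and Il1a as the lowest at 1.70 CPM in CD26+ NFs. Each line gave 1 library per NF population.

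The response of Il33 to tumour CM differed between CD26+ and CD26- NFs by 3.71 on the log2 scale, tested as the difference of the 2 effects (FDR = 0.0137 by edgeR; 0.0538 without replicate 3).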

How the results depend on the processing

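Of 990 values of single genes and comparisons under an alternative, 940 kept their direction and their side of the threshold. With a log2 limit of 2 added, 1 gene stayed called for CM in CD26- NFs, 3 for CM in CD26+ NFs, 2 between populations in control medium and 3 between them in tumour CM. The share of all tested genes past this limit was not computed. Leaving out 1 library at a time gave 3 to 6 calls for CM in CD26- NFs (5 with all libraries), 0 to 3 for the difference between the CM effects (1 with all) and 1 to 4 for the lines (2 with all), and left the numbers 6, 5 and 7 of the other comparisons as they were. For CM in CD26- NFs and for the difference, the lowest number came without replicate 3 and the highest without replicate 18; for the lines the highest came without replicate 9. The difference in CM effect gave 2 genes with DESeq2, 5 with the line as a replicate block and 4 without both 13-MCB-138 libraries; the line test gave 5 without a filter on low counts. In the lists, the block also moved the difference from 15 to 22 IL-1 responsive, 4 to 7 signalling and 1 to 2 other receptor genes; it moved no other number of calls by over 1.5 times. The cause of these shifts was not tested.

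Il1r1 with CM in CD26+ NFs reversed in sign, never near the threshold, at -0.031 with upper-quartile scaling, -0.0020 when a mean of 5 CPM was required, -0.0065 in the 2 groups alone and down to -0.045 without single libraries (highest value 0.042). Il33 in control medium turned to -0.10 without replicate 11 (0.47 at most), and the difference for Il18 to -0.019 without replicate 2 (0.22 at most).

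Il1b, Il18, Il1f10 and the CD26+ control level of Il1a rest on few counts, and 3 control libraries per population limit the precision of each contrast. DESeq2 gave neither a p nor an adjusted p for Il1rn in the group comparisons.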
